A study of Mus musculus with 12 samples.

Results

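The transcription axis that CaMKII signals to in the heart was followed through 10 genes. These are the MEF2 factors Mef2a, Mef2c and Mef2d, the class IIa histone deacetylases Hdac4, Hdac5, Hdac7 and Hdac9, and the cardiac factors Gata4, Srf and Tbx5. They were taken by gene symbol out of 24704 genes with a symbol on the arrays. Their Entrez Gene identifiers are, in that order, 17258, 17260, 17261, 208727, 15184, 56233, 79221, 14463, 20807 and 21388. Each was read by 1 probe set, and all 10 were among the 13737 genes that lay above the median of their array on at least 3 of the 12 arrays. No member was therefore lost to the filter on dim genes. The deacetylases were nevertheless dim. Over the 12 arrays Hdac4, Hdac5, Hdac7 and Hdac9 lay 0.87, 0.58, 0.95 and 1.02 log2 above the array median. The other members lay from 2.16 (Srf) to 6.16 (Mef2a) above it.

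Ventricular myocytes came from adult mice lacking both CaMKIIδ and CaMKIIγ (CaMKII DKO) or from the corresponding wild type (WT) mice, through enzymatic digestion on a Langendorff perfusion system. Cultured cells of each of 3 mice per genotype were either given 100 nM isoprenaline (Iso, an agonist of beta-adrenergic receptors) for 24 h or left untreated. This gave 4 groups of 3 Affymetrix arrays of total RNA, with the treated and the untreated array of a replicate coming from the same mouse by the mouse number in the labels. The study asked whether Iso changes gene expression in these cells and how that depends on CaMKII. The sources used here do not give the strain or the way the CaMKII genes were deleted, and all cells, controls included, had been isolated and held in culture. RNA came from bulk cultures, in which fewer cells of a type and less RNA per cell cannot be told apart.

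MEF2 proteins bind regulatory DNA of muscle genes and can activate them. Class IIa histone deacetylases bind MEF2 and keep its target genes silent. CaMKII and related kinases phosphorylate these deacetylases, which then leave the nucleus bound to 14-3-3 proteins and set MEF2 free. Protein kinase A, which beta-adrenergic receptors activate, acts on HDAC4 and HDAC5 as well. Most of this regulation works on protein location and modification, which an array of RNA does not read. GATA4, SRF and TBX5 are partner transcription factors of the same cardiac programme.

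Promoter sequences of RefSeq (build GRCm38.p6, the 250 bases before an annotated start) were at hand for 8 of the 10 genes, with 14 promoters in all; Gata4 and Tbx5 had none in the table. Those of Mef2a, Mef2c and Hdac4 are shown because these 3 had the smallest p-values for Iso among the 10 genes. The promoters of Hdac5 and Srf are shown because they hold a MEF2 site and CArG boxes, the sites bound by MEF2 and by SRF. All run 5′ to 3′ on the strand of the gene. Capitals mark the CRE core TGACG in Hdac4, the MEF2 site in Hdac5 and the CArG boxes in Srf. The Srf promoter also holds the core TGACG, left in lower case. In the Mef2a and Mef2c promoters shown, none of the searched motifs was found.
Mef2a, chr7:67372859-67373108, minus strand: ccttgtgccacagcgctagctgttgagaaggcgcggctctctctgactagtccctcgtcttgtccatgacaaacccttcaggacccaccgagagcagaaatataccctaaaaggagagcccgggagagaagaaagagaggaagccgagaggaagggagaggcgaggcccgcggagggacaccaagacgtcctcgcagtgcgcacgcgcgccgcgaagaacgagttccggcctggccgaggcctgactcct
Mef2c, chr13:83503784-83504033, plus strand: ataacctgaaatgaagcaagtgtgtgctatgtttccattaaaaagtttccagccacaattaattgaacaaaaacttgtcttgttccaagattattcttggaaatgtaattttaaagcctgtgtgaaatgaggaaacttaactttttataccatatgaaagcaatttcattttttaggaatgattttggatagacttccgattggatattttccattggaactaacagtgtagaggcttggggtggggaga
Hdac4, chr1:92180342-92180591, minus strand: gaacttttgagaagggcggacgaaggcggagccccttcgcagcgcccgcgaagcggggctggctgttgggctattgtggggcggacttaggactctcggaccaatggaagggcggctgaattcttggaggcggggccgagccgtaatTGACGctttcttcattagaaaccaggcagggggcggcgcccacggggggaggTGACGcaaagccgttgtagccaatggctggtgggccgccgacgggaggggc
Hdac5, chr11:102230173-102230422, minus strand: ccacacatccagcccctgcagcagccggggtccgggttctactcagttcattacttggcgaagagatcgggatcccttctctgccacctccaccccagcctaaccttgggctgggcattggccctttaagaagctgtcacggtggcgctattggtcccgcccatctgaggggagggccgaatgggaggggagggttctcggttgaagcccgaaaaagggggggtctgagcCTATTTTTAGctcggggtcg
Srf, chr17:46556163-46556412, minus strand: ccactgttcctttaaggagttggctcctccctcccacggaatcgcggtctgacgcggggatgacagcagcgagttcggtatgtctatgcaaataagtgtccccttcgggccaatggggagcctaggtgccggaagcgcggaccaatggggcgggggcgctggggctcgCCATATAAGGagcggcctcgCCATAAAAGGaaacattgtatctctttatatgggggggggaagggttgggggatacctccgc

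The search covered both strands for the MEF2 site, the CArG box, the full cyclic AMP response element TGACGTCA, its core TGACG, the GATA motif AGATAA and the T-box motif AGGTGTG. The core is part of the full element, and the MEF2 site and the CArG box are both rich in A and T. A MEF2 site was found in 1 of the 14 promoters: Hdac5 holds CTATTTTTAG from 20 to 11 bases before its start. Of all 32851 promoters of this length in the table, 2.92% held such a site. Srf holds a pair of CArG boxes, CCATATAAGG from 82 to 73 and CCATAAAAGG from 62 to 53 bases before its start, against 1.47% of all promoters with at least 1. Hdac4 holds the core TGACG at 103 and again at 51 bases before its start, and the Srf promoter holds it at 201, a motif found in 17.8% of all promoters. None of the 14 held the full element, which 1.55% of all promoters did. One of the 3 Mef2c promoters held AGGTGTG, and one of the 4 Hdac7 promoters held AGATAA, present in 5.1% and 9.99% of all promoters. These are matches of letters, not measured binding sites.

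The untreated DKO array 3 stood apart and touches every result of the 10 genes. Its median correlation with the other arrays was 0.956, against 0.984 to 0.988 for the other 11, and its residuals were the largest (root mean square 0.374 log2, against 0.141 to 0.276). The differences that use it are therefore followed below by their values without it. Of the deleted genes, Camk2g was lower in DKO on the log2 scale by 1.17 (3.97 ± 0.352 against 5.14 ± 0.327, SD, n = 3; limma adjusted p = 0.0361) without Iso, and it differed by -1.28 without array 3 (adjusted p = 0.0208). That call held in 12 of 23 alternatives and was lost without any 1 of 8 arrays (adjusted p up to 0.172), among them each untreated WT array. With Iso the difference was -1.67 (3.96 ± 0.126 against 5.63 ± 0.21; adjusted p = 0.00238), which passed in 23 of 23 alternatives. For Camk2d the differences were -0.29 and -0.35 and did not pass (adjusted p = 0.446 and 0.64), the first being -0.11 without array 3. Whether its probe set lies within the deleted part was not known or tested, so Camk2d was not used to check a label. The 10 cardiomyocyte markers all lay above the filter, as did 15 of 15 endothelial and 9 of 9 smooth muscle and pericyte markers. So did 9 of 10 fibroblast and 11 of 13 macrophage and leukocyte markers on the arrays. The counts were 5 of 6 for erythroid and platelet markers and 4 of 6 for neuronal, Schwann and mesothelial ones. Of all 24704 genes 13737 passed, and the filter does not show which cells the RNA came from. RNA of other cell types may have been present, which was not tested.

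None of the 10 genes passed an adjusted p of 0.05 for the Iso effect in either genotype, for the difference between these effects, or for genotype with or without Iso. The tests were limma fits over all genes with Benjamini-Hochberg adjustment, and few genes of any kind passed: 0.0218% of those tested for Iso in the WT cells, 0.051% in the DKO cells and 0.0146% for the difference between them. Mef2c came nearest. Averaged over the genotypes its Iso difference missed the threshold with all 12 arrays (adjusted p = 0.0656, 0.124% of genes passing). It passed without the untreated DKO array 3 (adjusted p = 0.0495), when more genes of all kinds passed (0.753%).

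**Figure D1:**
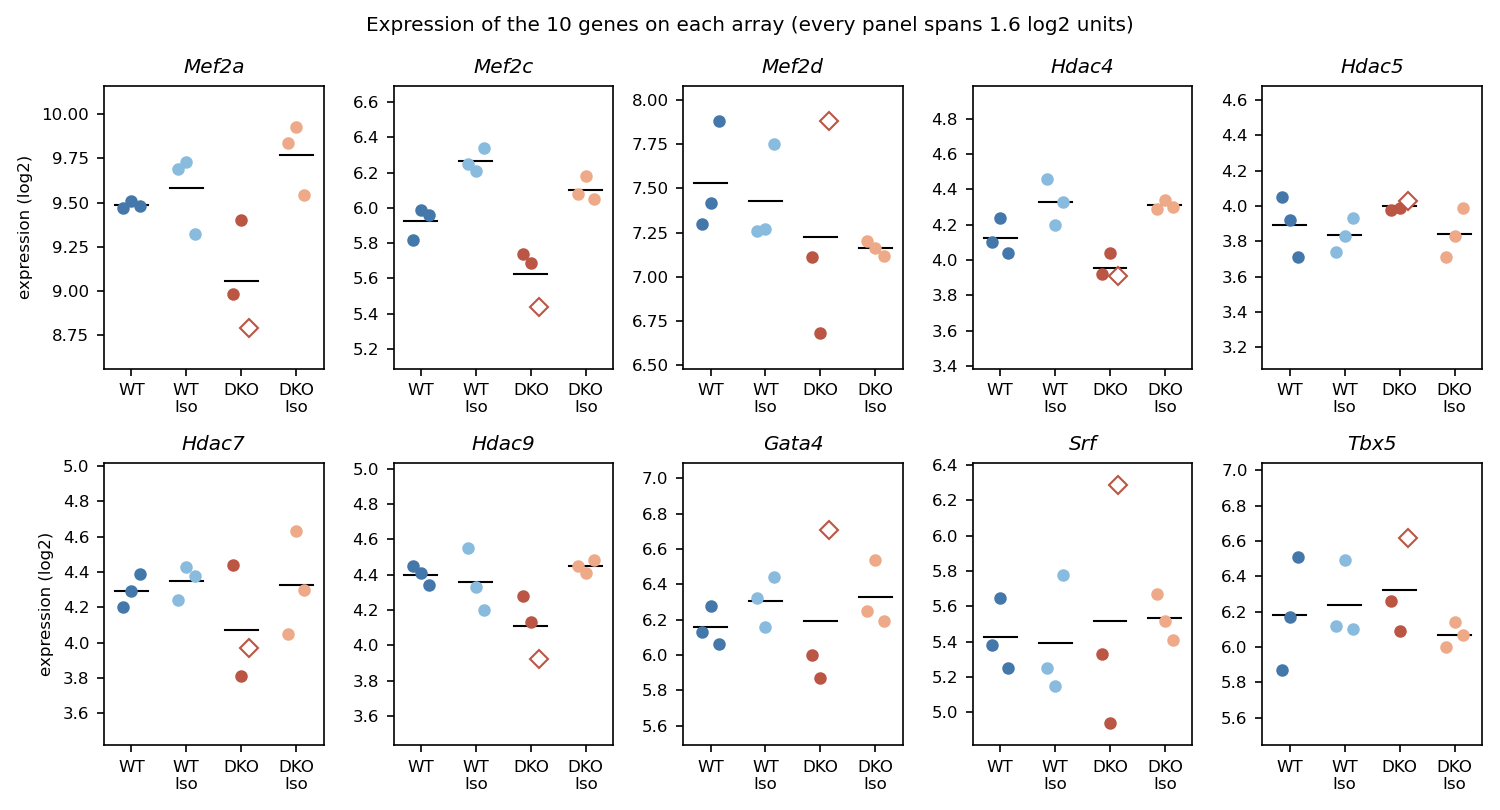
Deposited log2 expression of the 10 genes (y axis, each panel spanning 1.6 log2 units) on each of the 12 arrays by group (x axis); points are arrays, horizontal bars are means of 3 arrays, and the open diamond is the untreated DKO array 3. Mef2c is higher on all 6 Iso arrays than on all 6 untreated arrays, and the open diamond is the lowest point for Mef2a, Mef2c, Hdac4 and Hdac9 and the highest for Gata4, Srf and Tbx5.

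Mef2c, the MEF2 factor needed for heart development, was the member with the most even Iso response. In WT the untreated arrays read 5.82, 5.99 and 5.96 and the Iso arrays 6.25, 6.21 and 6.34. In DKO the untreated arrays read 5.74, 5.69 and 5.44 and the Iso arrays 6.08, 6.18 and 6.05. All 6 Iso arrays lay above all 6 untreated arrays, and the value was higher with Iso in 6 of 6 mice; 0.539% of tested genes separated in that way. The Iso difference was 0.35 in WT (SE 0.12, 95% interval 0.09 to 0.60, adjusted p = 0.598) and 0.48 in DKO (SE 0.12, 0.23 to 0.74, adjusted p = 0.0871), the latter 0.39 without array 3 (adjusted p = 0.142). The response in DKO minus that in WT was 0.13 (interval -0.23 to 0.50, adjusted p = 0.792), so these arrays bound a genotype difference in the response only to that interval, or to -0.29 to 0.37 around 0.04 without array 3. Averaged over genotypes the difference was 0.41 (SE 0.08, 0.23 to 0.60), a 1.33-fold higher level, with rank 59 of 13737 by p-value. Without the untreated DKO array 3 it was 0.37 (interval 0.20 to 0.53) and passed (adjusted p = 0.0495), when 0.753% of all 13551 genes tested passed. Its unadjusted limma p was no smaller in that fit (0.000364, against 0.000285 with all 12 arrays), and its rank was 99 of 13551.

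Mef2a, a MEF2 factor of adult heart muscle, differed with Iso mainly in DKO. Its values in WT were 9.47, 9.51 and 9.48 untreated and 9.69, 9.73 and 9.32 with Iso, so the WT groups overlapped. In DKO they were 8.98, 9.40 and 8.79 untreated and 9.84, 9.93 and 9.54 with Iso, with no overlap and higher values in 3 of 3 mice. The Iso difference was 0.09 in WT (SE 0.17, adjusted p = 0.981) and 0.71 in DKO (SE 0.17, interval 0.34 to 1.08, adjusted p = 0.0845), the latter a 1.64-fold higher level. The difference between these effects was 0.62 (interval 0.09 to 1.14, unadjusted p = 0.0246, adjusted p = 0.435), and it did not pass. Without the untreated DKO array 3, the lowest Mef2a value of all, the DKO difference was 0.58 (adjusted p = 0.142) and the difference of effects 0.49 (adjusted p = 0.5). Without the untreated DKO array 2, the highest of that group, the DKO difference was 0.88 and passed (adjusted p = 0.0289). With all arrays weighted by their quality, the DKO differences of Mef2a (0.74), Mef2c (0.39) and Hdac4 (0.37) passed as well (adjusted p = 0.0108, 0.0307 and 0.042). Calls rose for genes of all kinds in these 2 settings. For Iso in DKO 606 and 1109 genes passed, against 7 of 13737 in the main fit. With Iso the DKO arrays did not sit below the WT arrays; the low DKO values were those of the untreated group.

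Mef2d, the third MEF2 factor and a mediator of stress-dependent remodelling in the adult heart, had group means from 7.16 to 7.54. It spanned 0.07 log2 units within DKO with Iso and 0.48 to 1.20 within the other groups. In WT it read 7.30, 7.42 and 7.88 untreated and 7.26, 7.27 and 7.75 with Iso, the highest value of each group belonging to the same mouse. In DKO it read 7.11, 6.68 and 7.88 untreated and 7.20, 7.16 and 7.12 with Iso. The untreated DKO group spanned 1.20 log2 units and held both the lowest Mef2d value of all 12 arrays and, level with an untreated WT array, the highest. The Iso differences were -0.11 in WT (interval -0.67 to 0.45) and -0.07 in DKO (interval -0.62 to 0.49). Without array 3 the DKO difference took the other sign, 0.26 (interval -0.17 to 0.69, adjusted p = 0.581). That fit also gave the largest genotype difference among the members, -0.64 without Iso (SE 0.20, interval -1.07 to -0.21, adjusted p = 0.203), against -0.31 (adjusted p = 0.616) with all arrays.

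Hdac4, a deacetylase that binds CaMKII directly and represses MEF2, had the smallest p-value for Iso among the 4 class IIa deacetylases. Its WT arrays read 4.10, 4.24 and 4.04 untreated and 4.46, 4.20 and 4.33 with Iso. Its DKO arrays read 3.92, 4.04 and 3.91 untreated and 4.29, 4.34 and 4.30 with Iso. The DKO groups did not overlap, the WT groups did, and 5 of 6 mice were higher with Iso. The difference was 0.20 in WT (SE 0.11, adjusted p = 0.81) and 0.35 in DKO (SE 0.11, interval 0.11 to 0.60, adjusted p = 0.141). Leaving out the untreated DKO array 3 gave 0.33 in DKO (adjusted p = 0.226), and averaged over the genotypes the difference was 0.28 with all arrays and 0.27 without that one (adjusted p = 0.157 and 0.137).

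Hdac9, which yields a MEF2-binding repressor and is itself known as a MEF2 target, was nearly level in WT and higher with Iso in DKO. It read 4.45, 4.41 and 4.34 in untreated WT, 4.55, 4.33 and 4.20 in WT with Iso, 4.28, 4.13 and 3.92 in untreated DKO and 4.45, 4.41 and 4.48 in DKO with Iso. All 3 untreated DKO arrays lay below the other DKO arrays and below untreated WT. The Iso difference was -0.04 in WT and 0.34 in DKO (SE 0.13, adjusted p = 0.195), the difference between these being 0.37 (interval -0.02 to 0.77, adjusted p = 0.499). Without array 3, the DKO difference was 0.24 (interval -0.03 to 0.52, adjusted p = 0.398) and the difference of effects 0.28 (interval -0.09 to 0.65, adjusted p = 0.611).

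Hdac5 and Hdac7 had overlapping groups in every comparison made. Hdac5, which like HDAC4 is exported from the nucleus after phosphorylation, read 4.05, 3.92 and 3.71 in untreated WT and 3.74, 3.83 and 3.93 in WT with Iso. In DKO it read 3.98, 3.99 and 4.03 untreated and 3.71, 3.83 and 3.99 with Iso. It was lower with Iso in 5 of 6 mice, yet by only -0.11 on average (interval -0.30 to 0.09, adjusted p = 0.625), and by -0.10 without array 3. Hdac5 was the narrowest of the 10 genes, spanning 0.34 log2 units over all arrays, and also the dimmest (0.58 log2 above the array median). Hdac7, best known from endothelial cells and thymocytes, read 4.20, 4.29 and 4.39 in untreated WT and 4.24, 4.43 and 4.38 in WT with Iso. Its DKO arrays read 4.44, 3.81 and 3.97 untreated and 4.05, 4.63 and 4.30 with Iso. The Iso difference in DKO was 0.25 (interval -0.13 to 0.64, adjusted p = 0.473), with mouse by mouse values of -0.39, 0.82 and 0.32, and 0.20 without array 3 (adjusted p = 0.68).

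**Figure D2:**
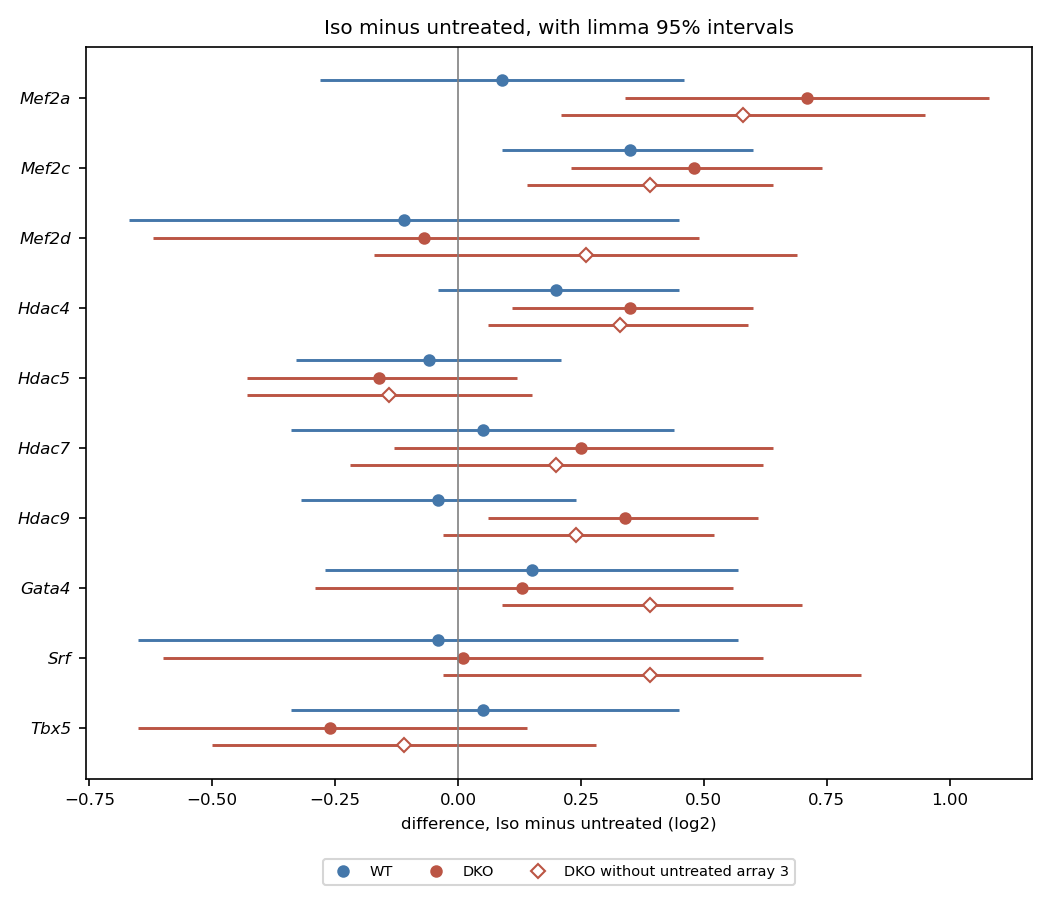
Iso minus untreated (x axis, log2) for each of the 10 genes (y axis) in WT, in DKO and in DKO without the untreated array 3; points are limma estimates and bars their 95% intervals. The DKO intervals of Mef2a, Mef2c and Hdac4 lie above 0 with and without that array, that of Hdac9 only with it, and that of Gata4 only without it; no adjusted p in these 3 fits passed.

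Srf, the serum response factor of actin and immediate early genes, had the widest range of the 10 genes, 1.35 log2 units, and both ends of it came from untreated DKO arrays. It read 5.38, 5.65 and 5.25 in untreated WT and 5.25, 5.15 and 5.78 with Iso. In DKO it read 5.33, 4.94 and 6.29 untreated and 5.67, 5.52 and 5.41 with Iso. The Iso difference in DKO was 0.01 (interval -0.60 to 0.62) with all arrays and 0.39 (interval -0.03 to 0.82, adjusted p = 0.374) without array 3. In WT it was -0.04 (interval -0.65 to 0.57).

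Gata4, a zinc finger factor of hypertrophic gene expression, read 6.13, 6.28 and 6.06 in untreated WT and 6.32, 6.16 and 6.44 with Iso. Its DKO values were 6.00, 5.87 and 6.71 untreated and 6.25, 6.54 and 6.19 with Iso. The DKO groups overlapped only through array 3, which held the highest Gata4 value of all arrays. The Iso difference in DKO was 0.13 (interval -0.29 to 0.56, adjusted p = 0.759) with it and 0.39 (interval 0.09 to 0.70, adjusted p = 0.215) without it. Averaged over genotypes the difference was 0.14 with all arrays and 0.27 without array 3 (adjusted p = 0.691 and 0.185).

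Tbx5, the T-box factor of heart patterning and atrial rhythm, had overlapping groups throughout. It read 5.87, 6.17 and 6.51 in untreated WT, 6.12, 6.49 and 6.10 in WT with Iso, 6.26, 6.09 and 6.62 in untreated DKO and 6.00, 6.14 and 6.07 in DKO with Iso. The Iso difference was 0.05 in WT (interval -0.34 to 0.45) and -0.26 in DKO (interval -0.65 to 0.14, adjusted p = 0.48). The DKO value without array 3 was -0.11 (interval -0.50 to 0.28).

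The Iso difference was above 0 for 7 of the 10 members in DKO and for 6 in WT, near the 50.9% and 47.8% of all tested genes. In DKO 4 of the 10 did not overlap and were higher (Mef2a, Mef2c, Hdac4 and Hdac9), while 10.8% of all tested genes did so. The same 4 had an unadjusted p under 0.05 in the higher direction, against 9.46% of all genes, and none was lower. Without array 3, 8 were above 0, as were 51.5% of all genes, and 4 reached that level (Gata4 in place of Hdac9), against 7.69% of all genes. The members' median difference was 0.19 log2 in DKO and 0.05 in WT, against 0.01 and -0.01 for all genes, and the DKO median was 0.30 without array 3. In WT only Mef2c did not overlap, beside 7.16% of genes higher in this way. Without array 3, non-overlap in DKO with higher values took in 7 of the 10 members, while the share of all genes was 17.2%, since 2 arrays overlap less easily than 3.

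The same untreated DKO arrays enter the genotype comparison without Iso, so the next values are not independent of those for Iso in DKO. Mef2a, Mef2c, Hdac4 and Hdac9 were lower in untreated DKO than in untreated WT on every array, a pattern that 9.21% of all genes showed (the nearest Hdac4 arrays of the groups both round to 4.04). Their differences were -0.43, -0.30, -0.17 and -0.29, with adjusted p-values from 0.293 to 0.519, and 0.204% of all genes passed there. An unadjusted p under 0.05 was reached by 3 of them (Mef2a, Mef2c and Hdac9), against 7.45% of all genes lower at that level. Without array 3 the 4 differences were -0.30, -0.21, -0.15 and -0.19 and none of these 4 reached it. In that fit 9 of the 10 members lay below 0 and 1 above it, while 47.6% of all genes lay above 0. Non-overlap with lower DKO values took in 6 members, beside 16.5% of all genes. With Iso the members' genotype differences ran from -0.27 for Mef2d to 0.19 for Mef2a, with adjusted p-values of at least 0.827, and 0.306% of all genes passed. Mef2c and Mef2d lay lower on all DKO arrays there (-0.17 and -0.27), beside 8.56% of genes that did so.

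Averaged over both treatments, Mef2c was lower in DKO by -0.23 (SE 0.08, unadjusted p = 0.0158, adjusted p = 0.317; -0.19 and adjusted p = 0.274 without array 3) and Mef2d by -0.29 (SE 0.18, adjusted p = 0.624). Of all genes, 0.546% passed in this comparison and 5.79% were lower at an unadjusted p under 0.05. Without array 3 the Mef2d value was -0.45 (SE 0.13, interval -0.74 to -0.17, adjusted p = 0.116), when its DKO arrays all lay below its WT arrays, as did those of 1.34% of genes.

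**Figure D3:**
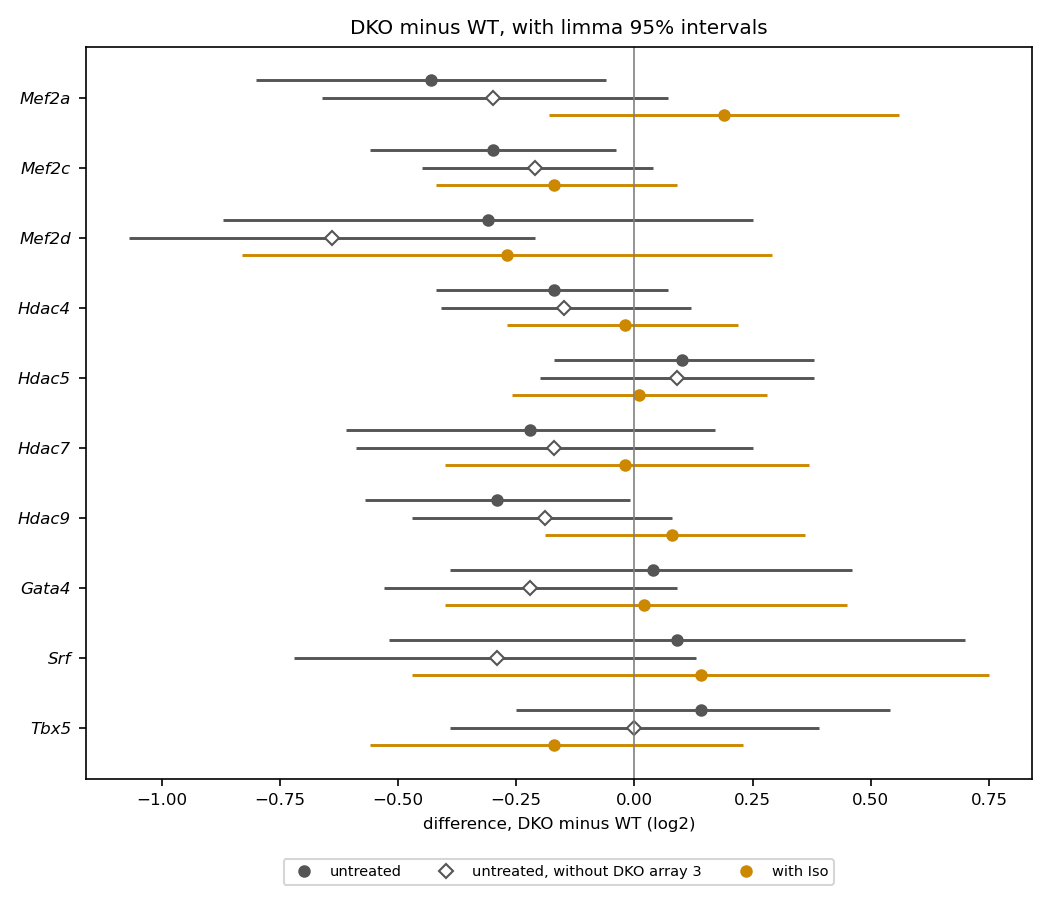
DKO minus WT (x axis, log2) for each of the 10 genes (y axis) without Iso, without Iso after leaving out the untreated DKO array 3, and with Iso; points are limma estimates and bars their 95% intervals. The Mef2a, Mef2c and Hdac9 intervals lie below 0 only with all untreated arrays, and that of Mef2d only without array 3.

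The members split by direction on the untreated DKO array 3. It held the lowest value of all 12 arrays for Mef2a, Mef2c, Hdac4 and Hdac9, which were -0.74, -0.59, -0.30 and -0.44 from the mean of the other 11. It held the highest value for Gata4, Srf and Tbx5 (0.51, 0.90 and 0.45 above that mean) and tied for the highest in Mef2d (0.60 above). Such extremes were common on that array: 3412 of the 13737 genes had their lowest value there and 3365 their highest, 49.3% together. The endothelial marker list averaged 0.41 log2 above its 12-array mean on it, the highest of that list on any array, while the log2 summed level of the same markers, which the brightest ones set, was the lowest there (11.8, against 12 to 12.7). The part of endothelial RNA in the members' values was not tested.

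**Figure D4:**
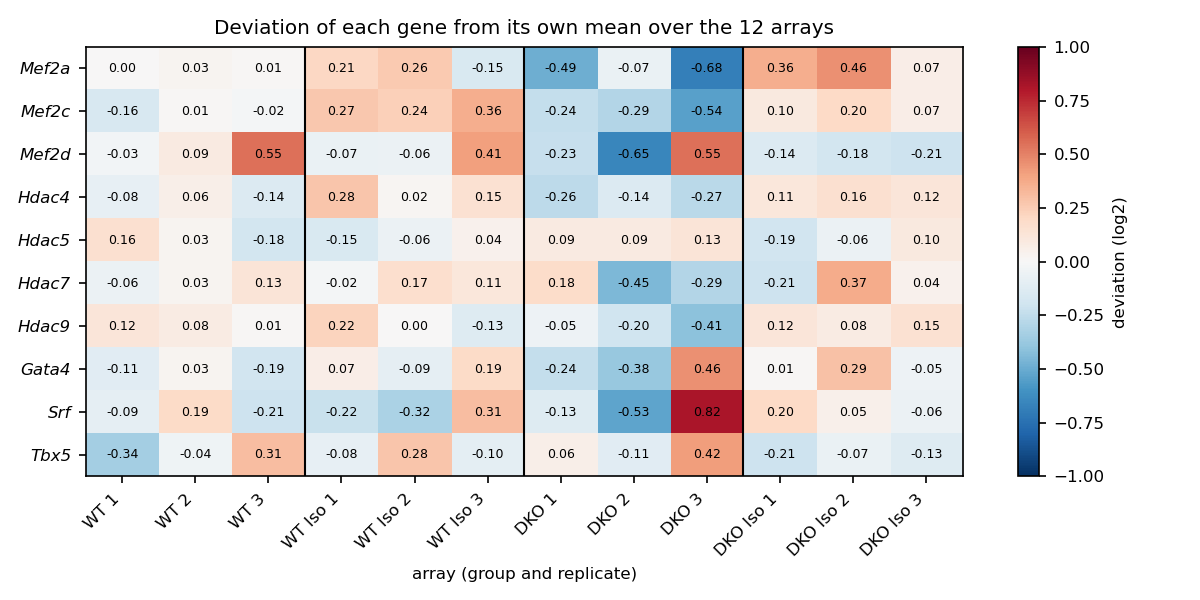
Deviation of each of the 10 genes (rows) from its own mean over the 12 arrays (columns, by group and replicate), in log2 units by colour and number. The column of the untreated DKO array 3 runs from -0.68 for Mef2a to 0.82 for Srf.

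The marker lists were set beside the Iso values as well. The mean deviation of the 10 cardiomyocyte markers ran from -0.18 to -0.05 on untreated WT arrays and from 0.02 to 0.17 with Iso, and in DKO from -0.14 to -0.03 untreated and from 0 to 0.21 with Iso. Their log2 summed level ran from 15.5 to 15.6 on the untreated arrays and from 15.6 to 15.8 on the Iso arrays. On the 13 macrophage and leukocyte markers the WT groups overlapped, at 0 to 0.12 untreated and -0.05 to 0.17 with Iso. In DKO they ran from 0 to 0.14 untreated and from -0.24 to -0.19 with Iso, with summed levels of 9.19 to 9.46 and 8.73 to 8.82. The 6 erythroid and platelet markers lay lower with Iso in DKO, at -0.59 to -0.26 against -0.20 to 0.16, and higher with Iso in WT, at 0.27 to 0.47 against 0.09 to 0.25. No marker on any of these 3 lists passed the test for Iso with all arrays. Without array 3, the cardiomyocyte markers Ryr2 and Ttn (0.47 and 0.64, both adjusted p = 0.0495) passed averaged over genotypes, and the complement gene C1qa of macrophages in DKO (-0.76, adjusted p = 0.0456). In DKO the endothelial mean deviations overlapped (0.02 to 0.41 untreated, -0.17 to 0.06 with Iso). Their summed levels there were higher with Iso (12.3 to 12.5 against 11.8 to 12.2). Mean deviations of the fibroblast, smooth muscle and pericyte, and neuronal, Schwann and mesothelial lists overlapped in both genotypes. Summed levels of the last list were higher with Iso in WT (6.26 to 6.53 against 6.16 to 6.24). The part of these differences in the Mef2c, Mef2a and Hdac4 values was not tested.

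The genes whose 12-array profile was most like that of a member were sought for the 3 members of widest range, by the root mean square difference of values centred on each gene's mean. Nearest to Srf (range 1.35) were Arhgap9, Zfp395 and Speg at 0.119, 0.128 and 0.157 log2. Nearest to Mef2d (range 1.20) were Prrc2a, Sh3pxd2a and Sf3a2 at 0.132, 0.140 and 0.153. Nearest to Mef2a (range 1.14) were Cpsf6, Paip2 and Ddx3x at 0.0929, 0.102 and 0.110. These distances describe the 12 arrays, of which untreated DKO array 3 carries a large share of the range.

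The readout of the axis is its target genes. None of the 21 genes known as MEF2 targets passed for Iso in either genotype. In DKO, 7 were higher and 4 lower at an unadjusted p under 0.05, and the list's median was 0.10 log2, against 0.01 for all genes. Among all genes, 9.46% were higher and 8.94% lower at that level. The counts without array 3 were 5 and 3 with a median of 0.15, beside 7.69% and 7.35% of all genes. In WT, 1 of the 21 was higher and 0 were lower (3.46% and 3.24% of all genes), with a median of 0.08 against -0.01. The list includes Hdac9 itself and the cardiomyocyte markers Ckm and Myl2.

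Nr4a1, an orphan nuclear receptor switched on by MEF2 and by cyclic AMP signalling, led that list. It read 7.82, 7.72 and 7.54 in untreated WT, 8.16, 8.63 and 8.40 in WT with Iso, 7.10, 6.97 and 7.39 in untreated DKO and 7.71, 7.47 and 7.79 in DKO with Iso. Iso arrays lay above untreated arrays within each genotype, and DKO arrays below WT arrays within each treatment. Averaged over the treatments, Nr4a1 was lower in DKO by -0.64 log2 (SE 0.11) and passed (adjusted p = 0.0232), with -0.70 without array 3 (adjusted p = 0.00599). The call was lost without any 1 of 6 arrays, namely untreated DKO 1, DKO Iso 1 and 2, untreated WT 1 and 2, and WT Iso 2 (-0.58 to -0.65, adjusted p up to 0.0802). Averaged over genotypes, the Iso difference was 0.61 (SE 0.11, adjusted p = 0.0613), and without the untreated DKO array 3 it was 0.66 and passed (adjusted p = 0.0183).

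Xirp2, an actin-binding protein of the intercalated disc, differed most with Iso in DKO among the targets, by 0.87 (SE 0.19, adjusted p = 0.0717), or 0.78 without array 3 (adjusted p = 0.115). Its arrays read 9.58, 9.46 and 9.26 untreated and 10.24, 10.55 and 10.13 with Iso in DKO, with no overlap. In WT they read 9.69, 10.08 and 9.73 untreated and 10.18, 10.39 and 9.65 with Iso, and overlapped. Ckm, muscle creatine kinase, went the other way in DKO, from 11.10, 10.93 and 11.67 to 10.70, 10.69 and 10.57, a difference of -0.58 (adjusted p = 0.109) that was -0.36 without array 3. Tcap, a titin cap protein of the Z-disc, was lower in DKO on all arrays and treatments, as were 0.677% of tested genes. Its difference averaged over the treatments was -0.46 (SE 0.09, adjusted p = 0.0547). It passed without array 3 (-0.46, adjusted p = 0.0375), when 1.82% of all genes passed.

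**Figure D5:**
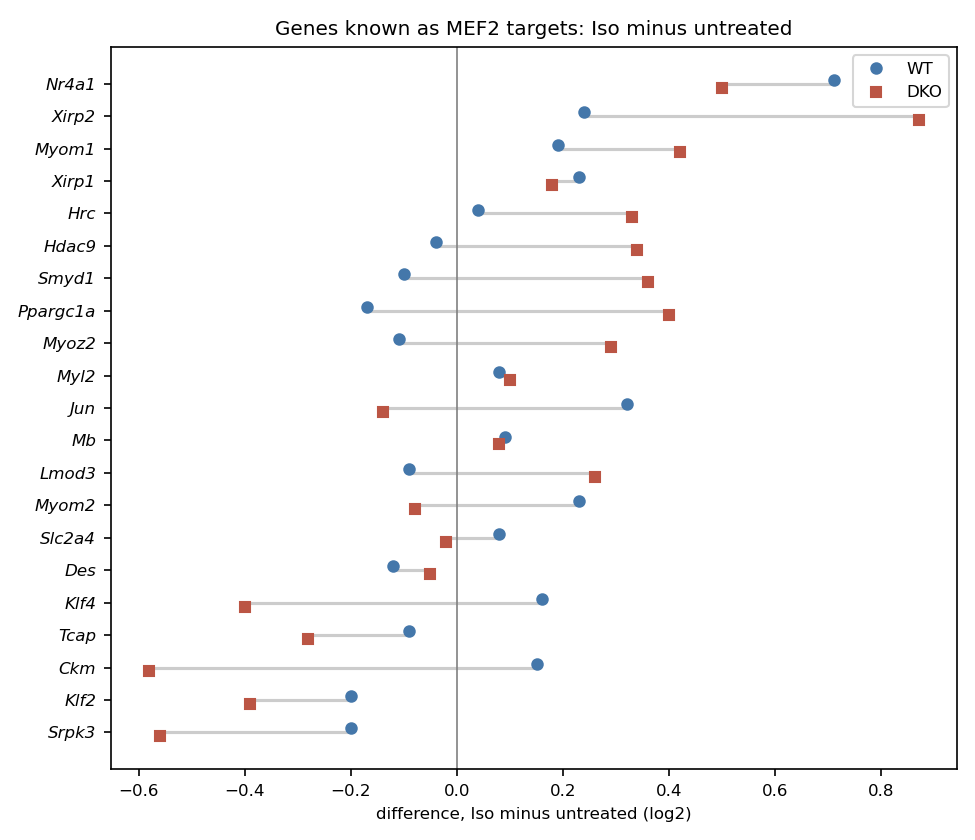
Iso minus untreated (x axis, log2) in WT (circles) and DKO (squares) for the 21 genes known as MEF2 targets (y axis), ordered by the mean of both; points are limma estimates over all 12 arrays. Nr4a1 stands at 0.71 in WT and 0.50 in DKO and Xirp2 at 0.24 and 0.87, while Ckm stands at 0.15 and -0.58.

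Of the 21 tested genes known as SRF targets, 5 had an Iso difference above 0 in DKO, against 50.9% of all genes. Their median was -0.25 log2 against 0.01 for all genes. At an unadjusted p under 0.05, 0 were higher and 5 lower, beside 9.46% and 8.94% of all genes, and none passed. Without array 3, 20 were tested, the median was -0.10, and 0 were higher and 3 lower at that level (7.69% and 7.35% of all genes). Egr1 and Acta1, an immediate early factor and skeletal alpha-actin, differed by -0.44 and -0.32 in DKO (adjusted p = 0.109 and 0.18), and by -0.37 and -0.31 without array 3. In WT the list's median was 0.01. Acta2, Cnn1 and Tagln of this list are smooth muscle markers as well.

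Fos, the other immediate early factor named, read 5.18, 5.10 and 5.10 in untreated WT and 5.73, 5.76 and 5.58 with Iso. In DKO it read 4.94, 4.94 and 5.58 untreated and 5.29, 5.10 and 5.11 with Iso, so the WT groups separated and the DKO groups overlapped through array 3. The Iso difference was 0.56 in WT (adjusted p = 0.46) and 0.02 in DKO (adjusted p = 0.971), and averaged over genotypes it was 0.29 (adjusted p = 0.278). With Iso, Fos differed between DKO and WT by -0.52 (adjusted p = 0.324). Leaving out array 3 gave an average of 0.39, which passed (adjusted p = 0.0484, 0.753% of all genes passing). The genotype difference with Iso uses no untreated array and stayed at -0.52. It passed in that fit (adjusted p = 0.0367), when 1.2% of all genes passed, against 0.306% with all arrays. Both calls were made in only 2 of 23 alternatives. Without array 3 the DKO difference was 0.23 (adjusted p = 0.386) and the difference between the genotypes' Iso effects -0.33 (adjusted p = 0.504).

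Of the 16 tested genes known as GATA4 or TBX5 targets, Nppa, which encodes atrial natriuretic peptide, was lower in DKO. It read 13.02, 12.82 and 12.32 in untreated WT and 10.84, 11.11 and 11.39 in untreated DKO, a difference of -1.61 log2 (SE 0.21, adjusted p = 0.00733). This difference no longer passed without untreated WT array 1 or 2 (-1.46 and -1.56, adjusted p = 0.0549 and 0.05). Nor did it pass when only the arrays compared were fitted (-1.61, adjusted p = 0.133). Without untreated DKO array 3 it was -1.75 (adjusted p = 0.00458). With Iso it read 12.03, 12.39 and 11.71 in WT and 10.92, 10.73 and 10.65 in DKO, a difference of -1.28 (SE 0.21, adjusted p = 0.0262), lost without any DKO Iso array or WT Iso array 1 or 2 (-1.10 to -1.35, adjusted p up to 0.154). Averaged over treatments Nppa was lower in DKO by -1.44 (SE 0.15, adjusted p = 0.000431), which passed in 22 of 22 alternatives. Nppa is also 1 of the 4 atrial markers, so it enters their mean deviation. Untreated WT arrays had atrial means of 0.26, 0.77 and -0.64, overlapping the untreated DKO arrays (-0.15, -0.34 and -0.55). The Iso arrays read 1.59, 1.6 and -0.66 for WT, against -0.48, -0.71 and -0.7 for DKO. WT Iso arrays 1 and 2 thus stood above all DKO Iso arrays, while WT Iso array 3 lay among them. The part of atrial cells in the Nppa difference was not tested. Ryr2, the calcium release channel of the sarcoplasmic reticulum, was higher with Iso in both genotypes, at 9.98, 10.17 and 10.04 against 10.48, 10.62 and 10.27 in WT and at 10.28, 10.23 and 9.96 against 10.81, 10.96 and 10.63 in DKO. Its averaged difference of 0.52 (SE 0.10, adjusted p = 0.0649) passed without array 3 (0.47, adjusted p = 0.0495). Ryr2, Pln, Myh6, Tnni3 and Tnnt2 of this list are cardiomyocyte markers too.

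Among the 16 tested kinases that phosphorylate class IIa deacetylases, Camk2g alone passed with all arrays, in the genotype comparisons given above. Sik1 is a salt-inducible kinase induced by cyclic AMP that holds these deacetylases in the cytoplasm. It was higher on all 6 Iso arrays than on all 6 untreated arrays, a pattern that 0.539% of tested genes showed. It read 6.17, 6.39 and 6.45 in untreated WT and 6.67, 6.68 and 6.81 with Iso, and 5.63, 5.89 and 6.36 in untreated DKO and 6.55, 6.69 and 6.68 with Iso. The averaged Iso difference was 0.53 (SE 0.12, adjusted p = 0.0921) and without array 3 it was 0.63 and passed (adjusted p = 0.0131), as did its difference in DKO (0.88, adjusted p = 0.0228). Of all genes, 0.753% and 0.229% passed there. In DKO, 3 of the 16 kinases were higher and 0 lower at an unadjusted p under 0.05, beside 9.46% and 8.94% of all genes, with a median of 0.09; counts and median were the same without array 3. Prkaa2, an AMP-activated kinase subunit, had the largest of these differences, 1.03 (SE 0.34, adjusted p = 0.144), which was 0.50 without array 3.

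The 19 tested partners and transport factors of class IIa deacetylases included Xpo1, the nuclear exporter, and 14-3-3 genes. None passed for Iso or genotype. In DKO with Iso, 6 were higher and 0 lower at an unadjusted p under 0.05, beside 9.46% and 8.94% of all genes, with a list median of 0.02. Without array 3 it was 2 and 0, beside 7.69% and 7.35%, with a median of 0.06. Xpo1 differed by 0.58 and the 14-3-3 gene Ywhae by 0.52 (adjusted p = 0.133 and 0.16), and by 0.41 and 0.29 without array 3. In WT the median was 0.07 and Xpo1 differed by -0.32 (adjusted p = 0.822). The difference between the Xpo1 effects was 0.90 (SE 0.26, adjusted p = 0.367), or 0.72 without array 3 (adjusted p = 0.317).

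The 20 tested cofactors of MEF2, SRF, GATA4 and TBX5 had a median Iso difference of 0.11 in DKO (0.20 without array 3) and -0.03 in WT, and none passed with all arrays. Crebbp, an acetyltransferase, differed by 0.44 averaged over genotypes (adjusted p = 0.239), and by 0.59 without array 3, where it passed (adjusted p = 0.0491). Carm1, an arginine methyltransferase and coactivator, read 7.17, 7.27 and 8.62 in untreated DKO and 8.51, 8.22 and 8.39 with Iso. Its difference of 0.69 (adjusted p = 0.241) was 1.16 without array 3 (adjusted p = 0.0174), since array 3 lay with the Iso arrays. In WT Carm1 read 8.43, 8.37 and 8.18 untreated and 8.26, 7.94 and 8.40 with Iso, so untreated DKO arrays 1 and 2 were the low ones. Without Iso it differed between DKO and WT by -0.64, or by -1.11 without array 3, which passed (adjusted p = 0.0069).

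The other MEF2 and deacetylase family genes, 15 tested, had medians of 0.02 for Iso in WT and -0.04 in DKO (0 without array 3), with none passing. Sirt3, a mitochondrial deacetylase, differed by -0.68 with Iso in DKO (SE 0.16, adjusted p = 0.0819; -0.66 without array 3), and Hdac2, a class I enzyme, by 1.08 (adjusted p = 0.229), which was 0.32 without array 3. The other heart transcription factors, 21 tested of 25 on the arrays with 4 dim, had medians of 0.09 in WT and -0.04 in DKO (0.05 without array 3) and none passed. Klf15, an inhibitor of hypertrophic growth, differed by -0.69 with Iso in DKO (adjusted p = 0.144), and the difference from its WT effect was -1.03 (SE 0.32, adjusted p = 0.39); without array 3 these were -0.59 and -0.93.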

How the data were processed

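The deposited values are log2 expression made by the authors with RMA, per the submitters' processing notes, and were used as they are; the RMA version, array type and annotation build were not given in the sources used here. Of 25428 probe sets, 24705 carried 1 symbol and 723 none; for the 1 symbol with 2 probe sets the brighter one stood. Replicates are separate mice, 3 per genotype, and the number of arrays limits the precision.

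limma 3.58.1 in R 4.3.3 fitted the 4 group means over all 12 arrays with moderated variances (eBayes), after the filter on genes above the array median on at least 3 arrays, and was tested on simulated data. P-values of the 7 contrasts were adjusted (Benjamini-Hochberg) over all genes kept, with the threshold at 0.05. The filter was applied anew without untreated DKO array 3. SDs are over arrays, and SEs, intervals and p-values are limma's.

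The mouse numbers in the labels pair the arrays. The deviations of paired arrays correlated at 0.00733, 0.0864 and 0.13 in DKO and at -0.0623, 0.0566 and 0.0109 in WT (consensus 0.0333). The mouse as a block was an alternative, beside filters, scalings, moderation, array weights, fits on fewer groups and each array left out.

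The members and lists were chosen with earlier results of these data known. Named were all members, Camk2d and Camk2g, the passing genes of each list or otherwise up to 4 of smallest p, and the 3 profiles nearest to the 3 widest members. Promoters came from RefSeq, GRCm38.p6.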

Additional observations from a re-analysis of the deposited data

How the results depend on the processing

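Of the members' values under the alternatives, 1548 kept their direction and their side of the threshold and 65 changed sign with neither value past it. The count of members passing stayed at 0 except in what follows. With array weights, which give less weight to arrays that fit less well, 3 members passed for Iso in DKO (Mef2a 0.74, Mef2c 0.39 and Hdac4 0.37 log2, adjusted p = 0.0108, 0.0307 and 0.042, with 1109 genes passing in all) and 2 for Iso averaged over genotypes (Mef2a 0.43 and Mef2c 0.36, adjusted p = 0.03 and 0.0188, with 581 genes). Leaving out each array in turn gave 0 to 1 members for Iso in DKO, the 1 being Mef2a without untreated DKO array 2 (0.88, adjusted p = 0.0289, with 606 genes). For Iso averaged over genotypes it gave 0 to 1, the 1 being Mef2c without untreated DKO array 3 (with 102 genes). Over all alternatives the averaged Mef2c difference ran from 0.36 to 0.44 (adjusted p from 0.0188 to 0.234) and the Mef2a difference in DKO from 0.58 to 0.88 (0.0108 to 0.321). Scalings moved no member by more than 0.02 log2. With the mouse as a random or a fixed replicate block, 0 members passed in each comparison it could be fitted for. The averaged Mef2c adjusted p was 0.057 with the random block and 0.12 with the fixed one, and the block changed no member's call. The fixed block could not be fitted for genotype. With 3 arrays a group, a difference that missed the threshold is bounded only by its interval.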
